A study of Arabidopsis thaliana with 6 samples.

Results

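The trichome shape genes are loci of Arabidopsis thaliana whose mutants have distorted or wrongly branched leaf hairs. The group held 9 genes, chosen by locus, of 26690 nuclear protein-coding genes measured. ITB1, GRL, KLK and BRK1 encode subunits of the SCAR/WAVE complex, DIS1, WRM, DIS2 and CRK encode subunits of the ARP2/3 complex, and AN encodes ANGUSTIFOLIA, a CtBP-like protein outside both complexes. All 9 loci were found in both input tables, 8 were found in both FA-CLIP site lists, and none was found in either mock list.

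Trichomes of Arabidopsis are single, branched epidermal cells. Their expansion depends on actin filaments nucleated by the ARP2/3 complex, which is switched on by the SCAR/WAVE complex downstream of small ROP GTPases. Loss of subunits of either complex gives the distorted class of trichome mutants. ECT2 belongs to the YTH-domain family, whose members recognise N6-methyladenosine (m6A) in RNA, and ect2 mutants are known for trichomes with extra branches.

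RNA bound by ECT2 was profiled by formaldehyde crosslinking and immunoprecipitation (FA-CLIP), which keeps RNase T1 fragments that stay attached to the tagged protein. Col-0 seedlings aged 14 days and fixed with formaldehyde gave all 6 libraries. The 2 input libraries held RNA without precipitation from plants labelled transgenic ECT2:ETC2-Flag/ect2, which carry the tagged gene in the ect2 mutant. The 2 FA-CLIP libraries held RNA precipitated with anti-FLAG magnetic beads from plants of that genotype, and the 2 mock libraries held RNA that the same beads retained from wild-type plants. The mock plants thus differed from the FA-CLIP plants in the tagged gene and in the ect2 mutation. Nothing in the labels says whether the replicates came from separate cultures, nor how many transgenic lines were used.

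Each FA-CLIP and mock list gives called sites with a whole number of conversion events per site, and no site under 2 events is listed. The FA-CLIP libraries held 901178 and 830355 events, of which 54.6% and 65.99% lay in nuclear protein-coding genes. The mock libraries held 489805 and 653262 events, with 6.23% and 5.56% in such genes. Input levels are in FPKM, with read depth unknown. ECT2 itself was at 72.1 and 74.9 FPKM in the input and had 86 and 78 FA-CLIP events and none in the mock. The input holds no wild-type library, so this does not check the genotype labels. Leaf RNA was abundant in the input, with RBCS1A, the Rubisco small subunit, at 5371 and 5560 FPKM. The root glucosidase gene BGLU21 was at 60.6 and 54.7 FPKM, and VGD1, a pollen pectin methylesterase gene, at 0.0197 and 0.0180 FPKM. The median of all nuclear protein-coding genes was 2.65 FPKM. Of 4 regulators of trichome fate, GL1 was at 0.682 and 0.732 FPKM, GL2 at 1.26 and 1.49, and GL3 at 0.417 and 0.579, all without a listed site. TRY was higher, at 2.35 and 2.95 FPKM, with 117 and 5 FA-CLIP events at sites that did not overlap. These libraries are of whole seedlings, in which trichomes are a minor part, so values of the shape genes are those of all tissues together.

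Bases under the FA-CLIP sites are shown first, for the site with the most events in each of the 8 genes that had one and for a second site in ITB1 and in DIS2. These are reproducible sites, meaning places where a site of replicate 1 and a site of replicate 2 overlapped by at least 1 nt on the same strand. Each line gives the 30 bases at the middle of the site in the sense of the mRNA, 5′ to 3′, in DNA letters, from the RefSeq copy of the TAIR10.1 build. Capitals mark the run UGUAA, the runs UGUAC and UGUAU, and the m6A consensus DRACH. In DRACH the D stands for any base but C, the R for a purine and the H for any base but G.
ITB1 site 1, chr2:16100942-16100971, plus strand: atttcAGACAtaTAACAttaaatacataca
ITB1 site 2, chr2:16101023-16101052, plus strand: gtgtgTGTATgtTGTAATGTAAgtagattc
GRL, chr2:14795809-14795838, minus strand: taattcagaAAACCtattatgcatgtcttt
KLK, chr5:6097371-6097400, minus strand: cacctttctttctGAACAagTAACCtggaa
BRK1 site 2, chr2:9624084-9624113, plus strand: aatctattcataaatatgTGTATctttttt
DIS1, chr1:4498246-4498275, plus strand: ttgtctgctttactccatttctattactga
WRM, chr3:9952735-9952764, minus strand: tactTGTACtTGTACcccttttttttacta
DIS2 site 1, chr1:10963049-10963078, plus strand: aTGTATtttttttactggattaagtctctg
DIS2 site 2, chr1:10963160-10963189, plus strand: aaatTGTAAgAAACTcaccttgatatggac
AN site 1, chr1:189932-189961, plus strand: acccaatttttgtgtttcgAGACTgtgtcg

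Every one of the 13 reproducible sites of the group was searched in the same way, on the sense strand. DRACH was in 6 of the 13 windows, against 40.2% of the 14705 windows of the same length at all reproducible 3' UTR sites. UGUAC or UGUAU was in 4 of 13, against 12.9% of all such windows, and UGUAA was in 2 of 13, against 9.69%. Both UGUAA windows are the second sites of ITB1 and DIS2 printed above, while the other reproducible sites of BRK1 and AN are not printed. The printed windows are thus no even sample of the 13. UUUUU was in 6 of 13, against 17.4%. The windows of the DIS1 site and of the BRK1 site nearest the stop codon, which is not printed, held none of these motifs. WRM held UGUAC in 2 places and a run of U, and its window had 53.3% U. A match is a description of these letters, and each of the 13 windows occurred 1 time in the 5 nuclear chromosomes. The share of U over the whole site had a median of 44.4% in the group and 41.2% over all reproducible 3' UTR sites.

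FA-CLIP listed sites in 8 of the 9 genes in each library, against 39.1% of all nuclear protein-coding genes in replicate 1 and 40.8% in replicate 2, and the sites of the replicates overlapped in all 8. Over all nuclear protein-coding genes 31.5% had a reproducible site, and in the input range of the group, from 1.63 to 7.30 FPKM, 32.1% did. The exception was CRK, which had no listed site in any library. The 9 genes were chosen with earlier results of these data known, so these counts describe them and are no test. The group totalled 119 events at 22 listed sites in replicate 1, and 148 events at 19 in replicate 2. The genes were thus at low event numbers: their median was 13 mean events, and 3 of the 9 were above the median of 18.5 of all genes with a reproducible site. Of the 8 genes, 5 had more events in replicate 2 and 3 had more in replicate 1, and over all genes with a reproducible site 60.4% had more in replicate 2.

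**Figure D1:**
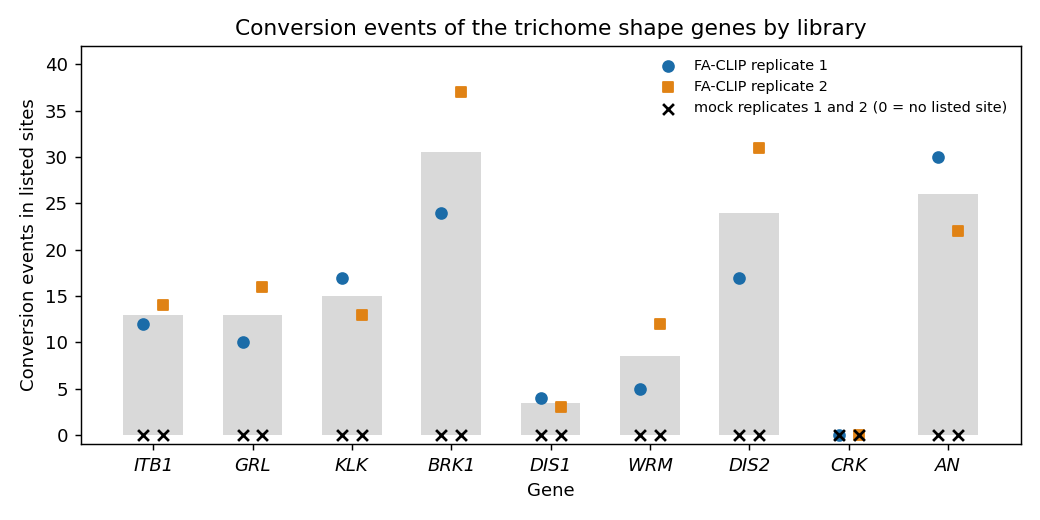
Conversion events in the listed sites of each gene (vertical axis, counts) by library. Circles and squares are FA-CLIP replicates 1 and 2, grey bars are their mean, and crosses are the mock libraries, all at 0 because no site was listed. BRK1, AN and DIS2 are the highest, from 17 to 37 events per library, and CRK has none.

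The SCAR/WAVE genes were listed in all 4 cases. ITB1 (AT2G38440, chromosome 2, 16095235 to 16101221) encodes SCAR2, the subunit that carries the ARP2/3-activating end of the complex. It had 12 events in replicate 1 and 14 in replicate 2, at 5.33 and 5.90 FPKM in the input, and the replicates lay close together. GRL (AT2G35110, chromosome 2, 14795715 to 14803971) encodes the NAP1 subunit and had 10 and 16 events at 4.09 and 4.93 FPKM. KLK (AT5G18410, chromosome 5, 6096945 to 6105104) encodes SRA1, the subunit that receives the ROP signal, and had 17 and 13 events at 4.02 and 4.57 FPKM. ITB1, GRL and KLK thus had overlapping ranges of events and did not differ beyond their spread.

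BRK1 (AT2G22640, chromosome 2, 9622997 to 9624335) encodes the smallest subunit, called HSPC300 in animals, which stabilises SCAR proteins. It had 24 and 37 events at 6.85 and 5.53 FPKM, a mean of 30.5 ± 9.19 (SD, n = 2), the most of the group. Both BRK1 libraries lay above every library of ITB1, GRL and KLK, whose events ran from 10 to 17. The mRNA of BRK1 was also much shorter, 941 nt in the representative transcript against 4133 to 4885 nt for the other SCAR/WAVE genes of the group.

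Among the ARP2/3 genes the events ranged more widely. DIS1 (AT1G13180, chromosome 1, 4494924 to 4498469) encodes ARP3, and WRM (AT3G27000, chromosome 3, 9952479 to 9955982) encodes ARP2, the actin-like pair from which a new filament grows. DIS1 had 4 and 3 events at 1.53 and 1.73 FPKM, the lowest input of the group. WRM had 5 and 12 events at 2.29 and 2.37 FPKM, and its libraries did not overlap with those of DIS1. DIS2 (AT1G30825, chromosome 1, 10960908 to 10963231) encodes ARPC2, a core subunit that helps hold ARP2 and ARP3 together, and had 17 and 31 events at 3.54 and 3.74 FPKM. The DIS2 mean of 24 ± 9.90 (SD, n = 2) was above that of WRM, 8.50 ± 4.95, and the libraries of both genes were apart.

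CRK (AT4G01710, chromosome 4, 735653 to 736965) encodes ARPC5, the smallest ARP2/3 subunit. It was at 7.06 and 6.23 FPKM in the input, above DIS1, WRM and DIS2 in both libraries, and had no listed FA-CLIP site. Of the 1752 protein-coding genes from 6 to 8 FPKM, 18.9% likewise had no listed site in either FA-CLIP library. The annotated 3' UTR of CRK, 515 nt, was longer than those of DIS1, WRM and DIS2, which measured 265, 308 and 232 nt. Since weaker sites go unlisted, its absence sets no upper limit on binding.

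AN (AT1G01510, chromosome 1, 187145 to 190472), known for narrow leaves and trichomes with too few branches when mutated, had 30 and 22 events at 7.07 and 7.54 FPKM. Its mean of 26 ± 5.66 events (SD, n = 2) was 2nd to BRK1, and the ranges of BRK1, AN and DIS2 overlapped. By mean events the order was BRK1, AN, DIS2, KLK, then GRL and ITB1 at the same mean of 13, then WRM, DIS1 and CRK. When events were scaled to the library's total in protein-coding genes, 7 of the 9 genes stayed at their rank. The tie of GRL and ITB1 was split, with ITB1 ahead.

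Sites of the group lay in 3' UTRs with 2 exceptions. All 13 reproducible sites had their midpoint there, against 71.6% of all reproducible sites in protein-coding genes. All 8 genes with a reproducible site had these in the 3' UTR alone, against 70.2% of all genes with one. Those shares are over genes with a median input of 11.4 FPKM, against 4.51 FPKM in the group. No share for genes at the input level of the group is given. Among all listed sites of the group, 21 of 22 in replicate 1 and 18 of 19 in replicate 2 lay in the 3' UTR. Over all protein-coding genes these shares were 57.9% and 69.3%. The exceptions were a coding-sequence site in AN with 2 events in replicate 1 and a coding-sequence site in GRL with 2 events in replicate 2. Neither was listed by the other replicate.

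Midpoints of the reproducible sites lay 37 to 221 nt after the stop codon, with a median of 111 nt in the group and 116 nt over all reproducible 3' UTR sites. AN has the longest 3' UTR of the group, 636 nt, and both of its reproducible sites lay at 111 and 182 nt. No site of AN was listed downstream of the latter. The 3' UTR of KLK is the shortest, 158 nt, and its single reproducible site lay at 70 nt. As a share of the UTR, the median position was 28.5% of the way in, against 40.04% over all reproducible 3' UTR sites. The density in the group was 4.96 reproducible sites per kb of 3' UTR, and 5.60 over all genes with a reproducible site. The sites were 34 to 75 nt wide, with a median of 50 nt against 49 nt over all reproducible 3' UTR sites.

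**Figure D2:**
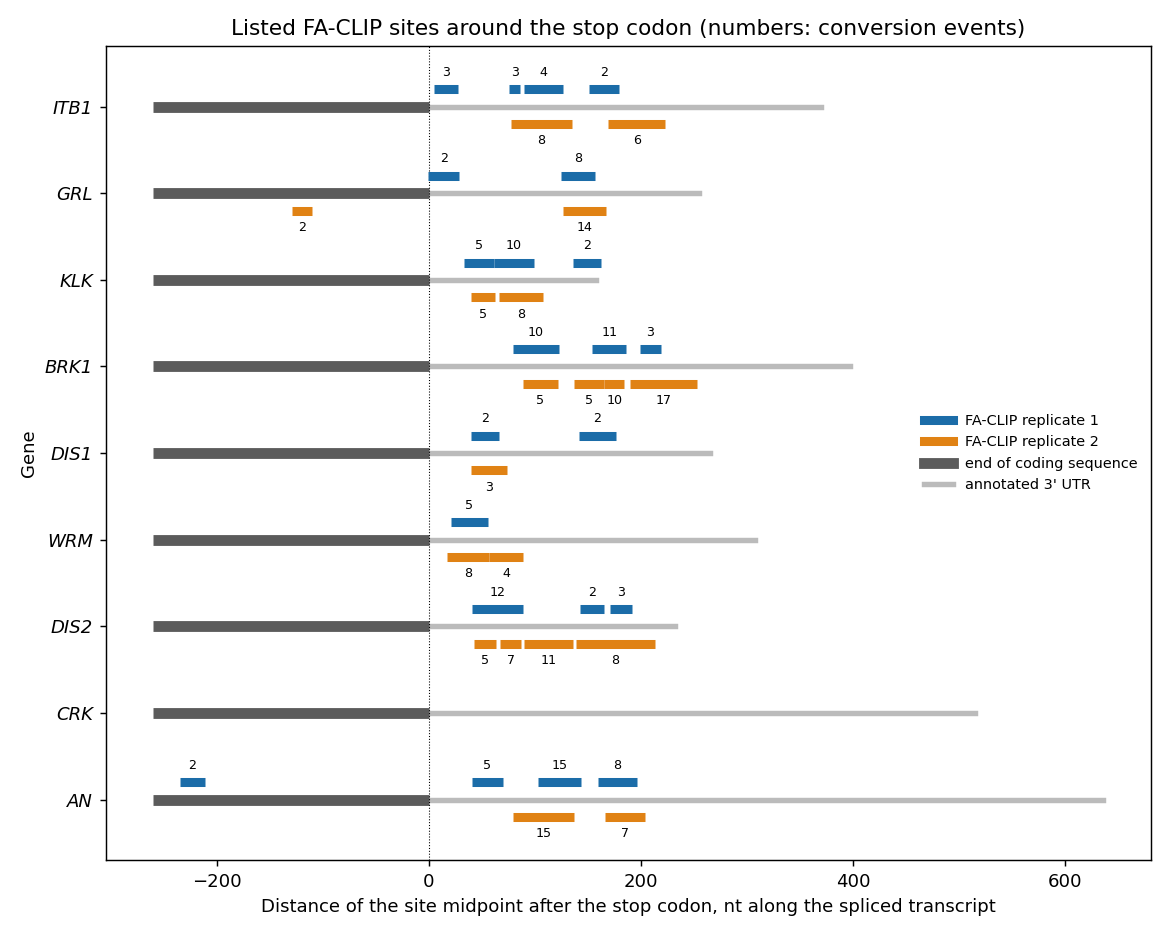
Listed FA-CLIP sites of each gene by distance of their midpoint after the stop codon (nt along the representative transcript), with replicate 1 above and replicate 2 below each line and the conversion events of each site as a number. Dark bars are the end of the coding sequence and light lines the annotated 3' UTR. Sites of both replicates stack up no farther than 221 nt after the stop codon, and CRK has none.

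ITB1 had reproducible sites at chr2:16100928-16100986, with 7 and 8 events in replicates 1 and 2, and at chr2:16101003-16101074, with 2 and 6. The first of these sites lay 106 nt after the stop codon and contains 2 DRACH matches, printed above, and the second, 187 nt after it, contains the UGUAA run. A further site of 3 events, 16 nt after the stop codon, was listed in replicate 1 alone. The single reproducible sites of GRL and KLK held more events than either ITB1 site, 8 and 14 in GRL and 15 and 13 in KLK. Events in KLK were the steadier of the pair, with a mean of 14 ± 1.41 (SD, n = 2) against 11 ± 4.24 in GRL.

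BRK1 had 3 reproducible sites in a row, the middle one 161 nt and the last one 221 nt after the stop codon. The site nearest the stop codon had 10 and 5 events, the middle one 11 and 15, and the last one 3 and 17. The middle site was thus the highest in replicate 1 and close to the highest in replicate 2. The last site was the highest of BRK1 in replicate 2 and the lowest in replicate 1. In AN the site 111 nt after the stop codon had 15 events in each replicate and the other had 8 and 7, so both replicates put more events at the same site.

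The DIS2 site nearest the stop codon, at chr1:10963041-10963088, had 12 events in each replicate, although replicate 2 listed it as 2 separate sites. Its other reproducible site had 5 and 8 events. Between these lay a site of 11 events that replicate 2 alone listed, the strongest site of the group without a partner in the other replicate. Under a stricter rule, overlap of 50% of each site, DIS2 had no reproducible site left and 7 genes had one. In DIS2 a site of 48 nt in replicate 1 faced sites of 20 nt in replicate 2, and a site of 74 nt in replicate 2 faced sites of 23 and 21 nt. Over all genes that rule left 25.0% with a reproducible site. DIS1 had its only reproducible site at chr1:4498245-4498278, with 2 and 3 events, and WRM at chr3:9952731-9952770, with 5 and 8. When sites at or under the median of 4 events of their library were left out, ITB1 and DIS1 had no reproducible site. The share of all genes that kept one under this rule is not given here.

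The mock listed no site in any of the 9 genes. Both FA-CLIP libraries were above both mock libraries in 8 of 9 genes, against 34.3% of all protein-coding genes and 37.9% of those in the input range of the group. With no mock site in the group, this count only restates which genes were listed in both FA-CLIP libraries. A site in either mock library was listed for 4.11% of all protein-coding genes, 1.60% of those in the input range of the group and 4.41% of genes with a reproducible site and as many mean events as the group (3.5 to 30.5). An empty mock list is therefore the usual state of genes at this level. If each gene had held the same share of protein-coding events in the mock as in FA-CLIP, it would have had 0.207 to 2.11 events per mock library in the 8 genes with sites, near or under the minimum of 2 at which a site is listed. With the same share of all events the 8 genes would have had 1.97 to 23.3 events. The mock lists thus could show events at the second rate in most of these genes, and could hardly show them at the first. The smallest p that an exact permutation test could give with 2 libraries a group is 0.33 (two-sided), so FA-CLIP and mock were not tested against each other.

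FA-CLIP events were next set against the input level, which asks how much of the recovery goes with abundance. In seedlings, fewer cells that express a gene and less RNA per cell cannot be told apart in these levels. Input was higher in replicate 2 for 7 of the 9 genes, BRK1 and CRK being the exceptions, against 45.4% of genes at 1 FPKM or more. From 1 to 2 FPKM, where DIS1 lay, 6.64% of genes had a reproducible site. From 2 to 4 FPKM, with WRM and DIS2, the share was 20.7%. It was 44.1% from 4 to 6 FPKM, with ITB1, GRL and KLK, and 58.0% from 6 to 8 FPKM, with BRK1, CRK and AN. Each of the 8 genes other than CRK had more events than at least 85.9% of the genes in its own input range.

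Genes without sites make up much of those ranges, so events were also read against genes with a reproducible site. There the median was 4.5 events from 1 to 2 FPKM, 6.5 from 2 to 4, 9 from 4 to 6 and 11.5 from 6 to 8. DIS2, with a mean of 24, had more events than 96.1% of such genes in its range, BRK1 more than 90.3% and AN more than 85.4%. KLK was above 75.7% and ITB1 and GRL each above 68.4%. WRM was above 64.9% and DIS1, with 3.5 events, was below the median, above 31.6%.

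**Figure D3:**
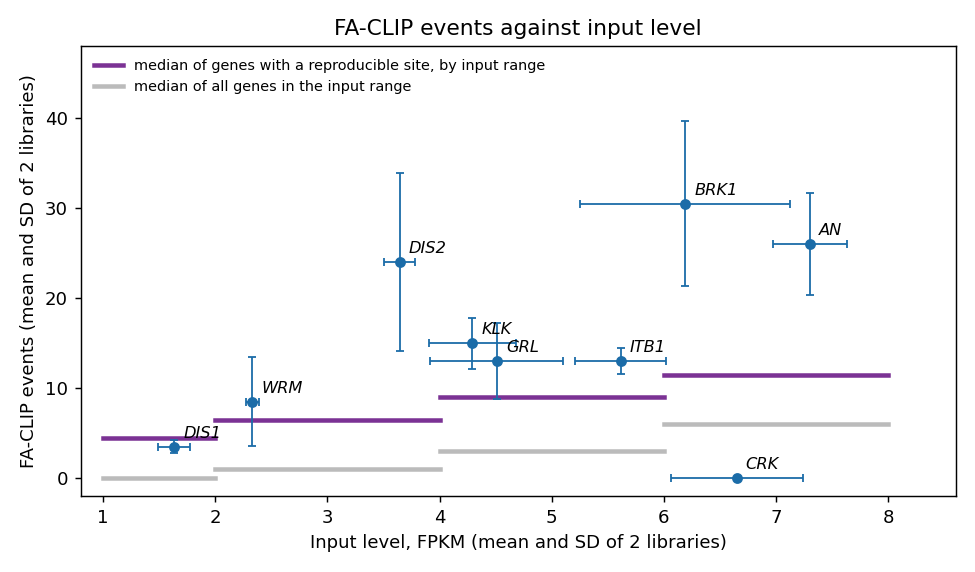
Mean FA-CLIP events (vertical axis, counts) against mean input (horizontal axis, FPKM) for the 9 genes, with bars for the SD of 2 libraries. Purple lines are medians of genes with a reproducible site and grey lines medians of all genes in 4 input ranges. DIS2, BRK1 and AN lie well above the purple lines, DIS1 lies just under its line and CRK is at 0.

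A recovery score put this on a scale per length: the log2 ratio of mean events, with 1 added, to the product of mean FPKM and transcript length (kb). It ranks genes and is no fold change, since events and FPKM are different units from different library kits. BRK1 scored 2.44, higher than 98.5% of the 16960 genes of 1 FPKM or more, and DIS2 scored 2.31, higher than 98.1%. WRM scored 1.28 and stood above 91.1% of genes. AN at 0.49 and DIS1 at 0.45 stood above 79.1% and 78.4%. The long mRNAs of the SCAR/WAVE complex came out lower, with KLK at -0.15, GRL at -0.58 and ITB1 at -0.97, above 66.8%, 57.7% and 49.4% of genes. CRK at -2.79 stood above 14.2%. The median of the 9 genes was 0.45, against -0.94 over all scored genes and 0.15 over those with a reproducible site, and 7 of 9 were above the median of all.

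Transcript length decided the place of the long mRNAs. Without length in the score, ITB1 stood above 82.5% of genes, GRL above 88.1% and KLK above 91.8%. BRK1 stood above 96.3% and DIS2 above 98.5% in that setting, and CRK above 7.18%. Since the sites lay in 3' UTRs of 158 to 636 nt, while coding sequences ran from 258 nt in BRK1 to 4278 nt in GRL, the 2 scores treat these genes very differently.

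The gene nearest to each of the 8 genes was found by Euclidean distance over log2 of the value plus 1 in the 6 libraries. ITB1 was nearest to AT1G07470, at a distance of 0.11, and GRL to AT1G50140, at 0.093. KLK was nearest to AT3G26380 (0.19), BRK1 to AT4G11100 (0.17) and AN to AT2G40110 (0.16). DIS1 was nearest to SHA (0.11), WRM to GSTF3 (0.15) and DIS2 to PRP40A (0.17). In no case was the nearest gene another member of the group. With 9 members among 26690 genes, this says little about the group.

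Other genes of the pathway were counted in the same way, and their lists too were chosen with earlier results of these data known. Of the 7 other SCAR/WAVE genes examined, 4 had a reproducible site, and of the 5 other ARP2/3 genes, 4 did, against 31.5% of all protein-coding genes. By input, SCAR3, ABIL3, ARPC1B and ARPC4 lay from 2 to 4 FPKM, where 20.7% of genes had one. ABIL2, ARPC1A and ARPC3 lay from 4 to 6 FPKM, where 44.1% did. SCAR1 lay from 1 to 2 FPKM (6.64%) and ABIL1 from 6 to 8 FPKM (58.0%). SCAR4 and ARPC2B lay below these ranges and ABIL4 above. Reproducible sites of SCAR4, ABIL3, ARPC1A and ARPC1B held 2 to 4 events per library. Those of ABIL1, ABIL4, ARPC3 and ARPC4 totalled 5 to 18. With the members added, 8 of 11 SCAR/WAVE genes and 7 of 9 ARP2/3 genes had a reproducible site. None of these 20 genes had a mock site, which is the usual state, since 4.11% of all protein-coding genes had one. Without the members, 4 of 5 reproducible sites lay in the 3' UTR in each complex, against 71.6% of all reproducible sites. With the members added the counts were 11 of 12 and 8 of 9, which include the member sites already described.

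Paralogs of ITB1 had few events. SCAR1 was at 0.908 and 1.17 FPKM and had no listed site, SCAR3 was at 3.20 and 3.12 FPKM with 2 events in replicate 1 and none in replicate 2, and SCAR4 was at 0.246 and 0.328 FPKM with 2 and 3 events at a reproducible site. ITB1 thus had more events than any other SCAR gene in both libraries. It also had the highest input of the 4. The ABI-like subunits ABIL1 to ABIL4, partners of SCAR proteins, ranged from 2 to 18 events per library. ABIL1 had 13 and 18 events at 6.81 and 8.06 FPKM, much like ITB1. ABIL4 had 11 in each library at 20.7 and 21.4 FPKM, the highest input of the pathway lists, and its reproducible site lay in the coding sequence.

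Among other ARP2/3 subunits, ARPC4 had 15 and 10 events at 3.58 and 2.76 FPKM. ARPC4 forms the core of the complex with ARPC2, and its recovery score of 2.18 stood above 97.6% of genes, close to that of DIS2. ARPC3 had 10 and 8 events and ARPC1A had 4 and 6. ARPC1B had 13 and 3 events, with a reproducible site in an intron of the representative transcript, for which no 3' UTR is annotated. ARPC1A and ARPC1B are close paralogs, and how the authors placed reads shared by both is not given in the sources used here. ARPC2B, the paralog of DIS2, was at 0.412 and 0.376 FPKM with no listed site.

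Genes upstream of SCAR had the highest median of mean events of the 4 lists, 57. The small GTPase genes ROP2 and ROP4 had 146 and 100 events and 98 and 82 events, at 12.3 and 12.4 FPKM and at 13.2 and 12.8 FPKM. ROP6 had 12 and 36 events. SPK1, the exchange factor that activates ROPs and binds the SCAR complex, had none in replicate 1 and 6 in replicate 2. Thus 3 of these 4 genes had a reproducible site, against 31.5% of all protein-coding genes. Only ROP6, at a mean of 7.65 FPKM, lay in the range from 6 to 8 FPKM, where 58.0% of genes had one. SPK1, at 3.36 FPKM, lay in the range from 2 to 4 FPKM, where 20.7% did. ROP2 and ROP4 lay above all input ranges counted here, so no share at their input level is given. All 8 of their reproducible sites lay in the 3' UTR, against 71.6% of all such sites. Most ROP2 events fell at 1 site 268 nt after the stop codon, with 118 and 69 events, and most ROP4 events at 1 site 282 nt after it, with 88 and 80.

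Of 6 microtubule genes of trichome branching, 3 had a reproducible site, against 31.5% of all protein-coding genes. These 3, KIS, TON2 and KTN1, had the highest input of the list. Only KTN1, at a mean of 4.73 FPKM, lay in the range from 4 to 6 FPKM, where 44.1% of genes had one. ZWI and POR lay from 2 to 4 FPKM, where 20.7% did, and STI from 1 to 2 FPKM, where 6.64% did. KIS, a tubulin folding cofactor gene, had 90 and 140 events at 17.8 and 15.3 FPKM, and KTN1, the katanin subunit that severs microtubules, had 29 and 27. TON2 had 39 and 19 events and was the only gene of the 22 with mock sites, 21 and 31 events. Those mock sites lay in an intron, where each overlapped a site listed in 1 FA-CLIP library and no reproducible site, while the 4 reproducible sites of TON2 lay in its 3' UTR. ZWI, a kinesin gene, had 5 events in replicate 2 alone, POR had 2 in replicate 1 alone and STI had none. Over the 4 lists 14 of 22 genes had a reproducible site, against 31.5% of all protein-coding genes. When sites at or under the median events of their library were left out, 6 did, and no share of all genes is given for that rule.

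**Figure D4:**
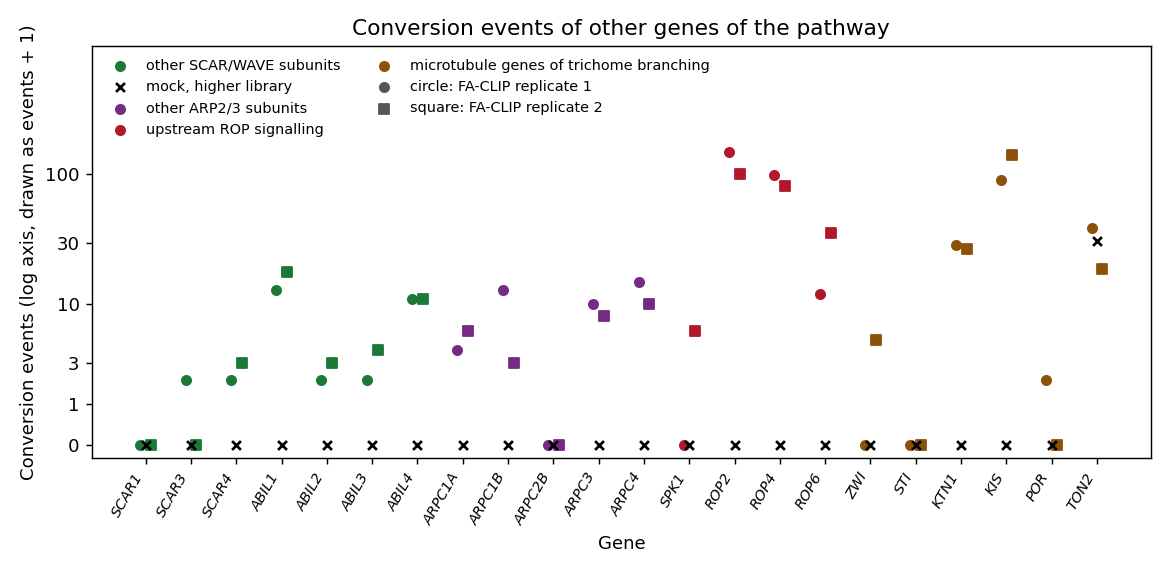
Conversion events of the 22 other pathway genes (vertical axis, log scale, drawn as events plus 1) with circles for FA-CLIP replicate 1, squares for replicate 2, colours for the 4 lists and crosses for the higher mock library. ROP2, ROP4 and KIS are the highest at 82 to 146 events per library, and TON2 alone has mock events.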

How the data were processed

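The labels name 3 groups of 2 libraries, and FA-CLIP and mock RNA was made into libraries with another kit than input RNA, per the labels' protocols. Reads were handled with cutadapt and Bowtie (versions unstated) on TAIR10, per the submitters' processing notes. How sites were called, reads counted and genes annotated is not given in the sources used here. Site lists as deposited hold counts of conversion events per site, called per library and not scaled, per the file headers, which do not define a conversion. The deposited input tables hold FPKM, a unit inferred from the header layout and the values. A single gene, AT2G01021, took 33.4% and 57.5% of the summed FPKM, and the median log2 ratio of input replicate 2 over 1 was -0.02.

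A site listed for several transcripts of a gene was counted once. Regions come from the transcript with the longest CDS in RefSeq TAIR10.1, by the site's midpoint. The authors' label named the same region for 41 of 41 sites of the group and 94.5% of all. G was at 25.1% of last bases and 22.0% of bases before the first, against 15.0% of first and 17.9% of following bases. The excess has the direction that RNase T1, which cuts after G, would give with 1-based coordinates. It is small, and most site ends were without such a G. Shares of sites and genes are counts. Percentiles give the share of genes with a lower value. Intervals are not given, since events may not be independent molecules.

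The 9 genes, the pathway lists and the markers were chosen with earlier results of these data known. All 9 genes and all pathway genes are named, with the nearest gene to each member that had a reproducible site. Site joining and region assignment were tested on simulated data. Tools were Python 3.11.15, numpy 2.4.6 and matplotlib 3.10.9.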

Additional observations from a re-analysis of the deposited data

How the results depend on the processing

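The number of genes with a reproducible site was 8, 7 with 50% overlap and 6 among sites above the median events. Without either FA-CLIP library it was 8, where every listed site of the other counts, so that it could not fall. The mock count of 0 could only stay at 0 in the settings run, which therefore say nothing of its stability. The median of events in reproducible sites was 11.5, fell to 6.5 with 50% overlap and was 11 among sites above the median. It ran from 9 to 14 without an FA-CLIP library. The share of sites in the 3' UTR was 100% and was also 100% by the authors' label. Without an FA-CLIP library it ran from 94.7% to 95.5%. The median percentile of the recovery score was 78.4. It was 91.7 without transcript length and 62.5 when genes of any FPKM above 0 were ranked, which adds genes with little input. Without an FA-CLIP or input library it ran from 72.4 to 83.3. Of the 22 pathway genes, 14 had a reproducible site, 12 with 50% overlap and 6 among sites above the median events. When either FA-CLIP library was left out, 17 had a listed site. For sites above the median events no share of all genes is given, so neither count of 6 has a background beside it. For single genes, 50% overlap moved the events in reproducible sites beyond the spread of the replicates in 3 of 9 genes, namely ITB1, BRK1 and DIS2, and keeping sites above the median did so in 4 of 9, namely these and DIS1. The recovery percentile moved beyond that spread in 9 of 9 genes when genes of any FPKM were ranked and in 6 of 9 without length. It did so in 5 of 9 genes without FA-CLIP replicate 2 and in 2 of 9 without FA-CLIP replicate 1. When input replicate 1 or input replicate 2 was left out, it did so in 1 of 9. No paired analysis was possible because no result comes from a test across libraries. Site lists are cut off below 2 events, which leaves the absence of CRK without a bound.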
